A study of Mus musculus with 6 samples.

Results

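The genes described here are the protein-coding genes whose symbols begin with Psma, Psmb, Psmc, Psmd, Psme, Psmf or Psmg followed by a digit, the naming system of the mouse proteasome, together with Ubd, which encodes the ubiquitin-like modifier FAT10. They were chosen by symbol and biotype, and they number 51 of the 54532 genes in the deposited table, of which 22046 are protein-coding. Earlier results of these data were known at the choice, and had already named Ubd among the largest increases. RNA-seq had been carried out on 3 libraries labelled NSUN2-KO and 3 labelled NC, all from mouse macrophages matured in culture from bone marrow cells. Both groups had been polarized to the inflammatory M1 state with LPS and IFN-γ, and no unstimulated samples were analysed here. NSUN2 methylates cytosines in tRNAs and several other RNA classes. The meaning of NC is not stated in the labels, nor how the knockout was made, nor the strain, sex, age or animal behind each library, so that p-values measure the spread between these libraries, which may be partly technical.

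The proteasome degrades proteins tagged with ubiquitin. Its core is a barrel of alpha and beta rings, closed at its ends by regulatory particles that bind, unfold and admit the tagged protein. Interferon-γ makes macrophages replace the catalytic subunits Psmb5, Psmb6 and Psmb7 by Psmb8, Psmb9 and Psmb10, which forms the immunoproteasome, and raises the PA28 activator made of Psme1 and Psme2. These changes alter the peptides offered to MHC class I. FAT10 is another product of inflammatory signalling and carries the proteins it is attached to directly to the proteasome.

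Values are FPKM, reads scaled by gene length and by library size, so levels of different genes are compared per length. Libraries held 40105614, 35019033 and 37161700 reads in NSUN2-KO replicates 1, 2 and 3, and 38516800, 45636131 and 39012241 in NC replicates 1, 2 and 3. Nsun2 itself was at 0.967, 1.36 and 0.863 FPKM in NSUN2-KO and 1.88, 2.04 and 1.84 FPKM in NC (log2 fold change -0.51, limma adjusted p = 0.0228), lower in every NSUN2-KO library but not absent. All 8 macrophage markers reported were above the expression filter, and their summed level was 3368 to 3409 FPKM in NSUN2-KO and 3929 to 4018 FPKM in NC, with Cd14 higher and Lyz2, Cd68 and Fcgr1 lower. Of 7 markers of the M1 state, 6 were higher in NSUN2-KO, all but Cd86, with summed levels of 3041 to 3185 FPKM against 2578 to 2635 FPKM in NC. Markers of T and NK cells, B cells and fibroblasts summed to no more than 0.252, 0.666 and 0.808 FPKM in NSUN2-KO and 0.182, 0.605 and 1.31 FPKM in NC, and none passed the filter. Of 9 neutrophil markers 5 passed the filter and 3 were lower, with Elane at 0. The 9 summed to 79.0 to 83.1 FPKM in NSUN2-KO and 98.0 to 105.9 FPKM in NC. Of 6 dendritic cell markers 2 passed and Ccr7 was higher. The 6 summed to 8.22 to 9.42 FPKM in NSUN2-KO and 5.10 to 6.14 FPKM in NC. Sex-linked genes also separated the groups, with Xist at 30.6 ± 1.20 FPKM in NSUN2-KO and 14.5 ± 0.88 FPKM in NC (SD, n = 3 each), and with the Y-linked genes Kdm5d, Uty, Eif2s3y and Ddx3y at 0 in NSUN2-KO against means of 0.561 to 6.57 FPKM in NC. Genotype and the sex-linked difference cannot be told apart here, the part of the M1 and lineage markers in the results that follow was not tested, and in bulk RNA fewer cells of a type and less RNA per cell cannot be told apart.

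The Psm genes as a set differed little between NSUN2-KO and NC macrophages, whereas Ubd, which is not a subunit, was higher in NSUN2-KO. Of the 51 genes, 47 averaged 1 FPKM or more across the 6 libraries and were tested with limma on log2(FPKM + 1), with Benjamini-Hochberg adjustment over all 9443 genes tested. The count of genes with an adjusted p below 0.05 was 2 of 47, Ubd and the alpha-ring gene Psma4, both higher in NSUN2-KO, and 0 were lower. Over all genes tested, 8.49% passed this threshold, 4.19% higher and 4.3% lower, so the genes' share of 4.26% was no larger than the background. Without Ubd, whose increase was known beforehand, it was 1 of 46 (2.17%). At an unadjusted p below 0.05 there were 4 of the 47, all higher (Ubd, Psma4, Psme2b and Psme4), or 8.51%, against 25.5% of all genes. The ranges of the 2 groups did not overlap for 10 of the 47 (21.3%), against 31.1% of all genes, with 7 of the 10 higher and 3 lower in NSUN2-KO.

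The size of the differences was small. The 46 tested Psm genes had log2 fold changes, NSUN2-KO minus NC, between -0.17 and 0.20, with a median of 0.02 and a median absolute value of 0.05, against 0.08 over all genes tested. The fold changes were measured with a median standard error of 0.05, against 0.06 over all genes. For 39 of the 46 the 95% confidence interval lay within 0.25 of 0 on the log2 scale, compared with 54.6% of all genes. The summed level of the 50 Psm genes was 2186, 2169 and 2236 FPKM in NSUN2-KO and 2103, 2166 and 2112 FPKM in NC, a ratio of 1.03, with the lowest NSUN2-KO library close to the highest NC library, and without Psma4 the groups overlapped.

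**Figure D1:**
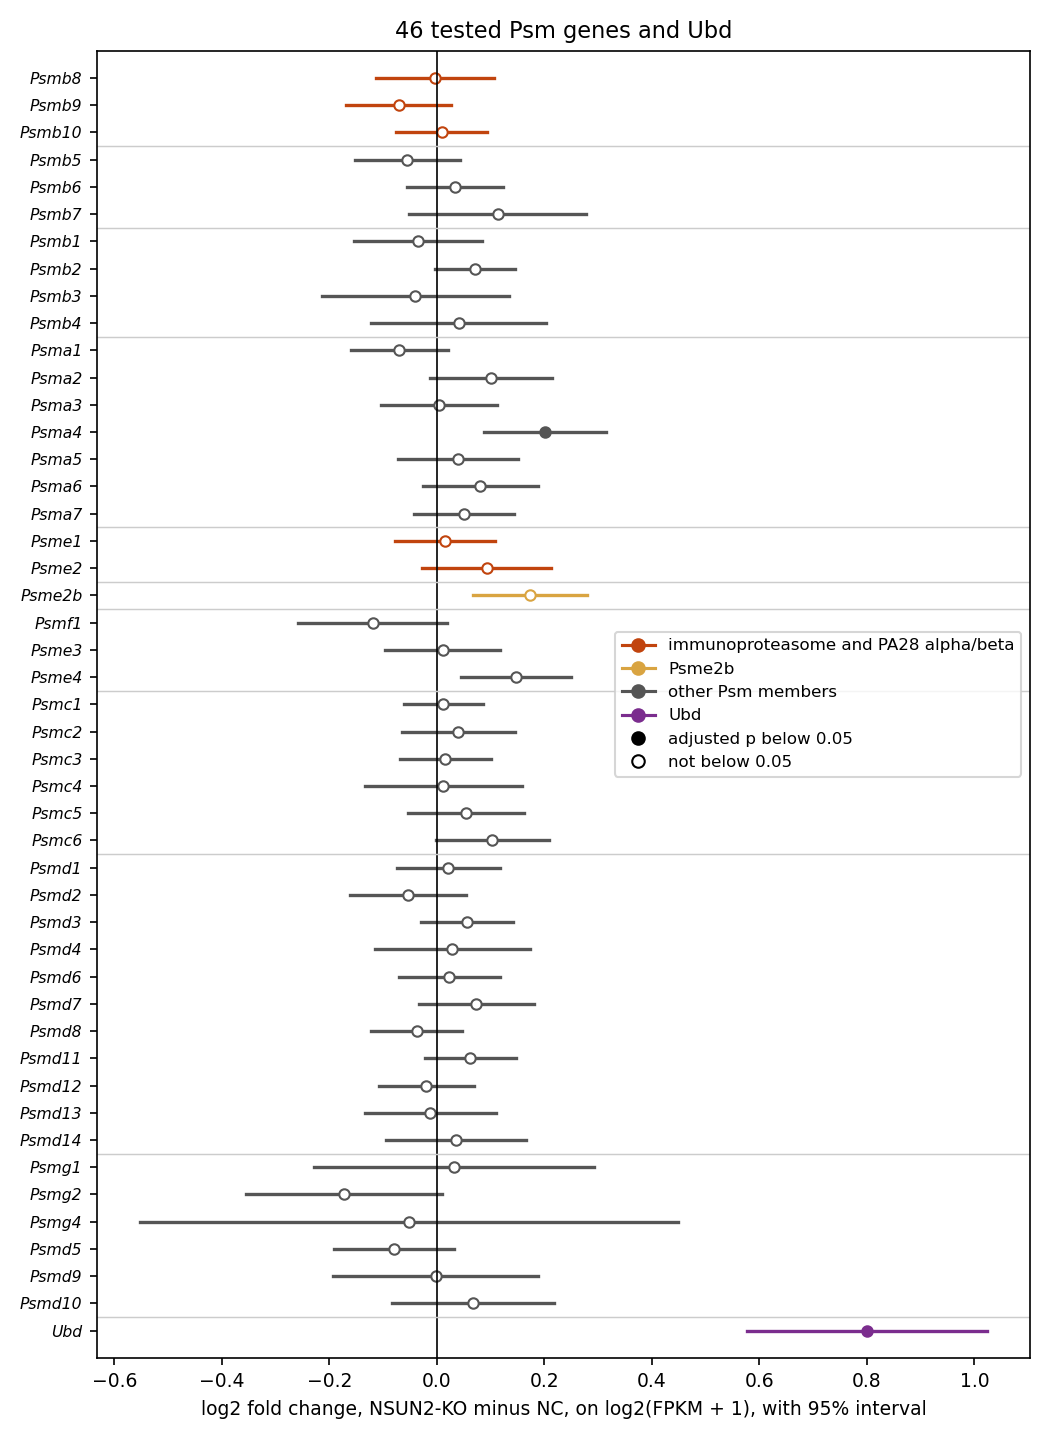
Log2 fold changes, NSUN2-KO minus NC, on the log2(FPKM + 1) scale (x axis) for the 46 tested Psm genes and Ubd (y axis, grouped by role), each point with its 95% confidence interval from limma. The Psm genes lie between -0.17 and 0.20 and Ubd stands at 0.80.

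Ubd was 1.88-fold higher in NSUN2-KO. Its gene lies at chr17:37193892-37196095 on the plus strand (GRCm38) and measures 931 bases in the deposited annotation. Ubd was at 9.27, 9.74 and 8.95 FPKM in NSUN2-KO replicates 1, 2 and 3, from 347, 318 and 313 reads, and at 5.97, 4.39 and 4.53 FPKM in NC replicates 1, 2 and 3, from 215, 187 and 165 reads. Every NSUN2-KO library was above every NC library, and the group means of 9.32 ± 0.39 and 4.96 ± 0.88 FPKM (SD, n = 3 each) differed by far more than either spread. The log2 fold change was 0.80 (SE 0.10, 95% interval 0.58 to 1.02, limma adjusted p = 0.00329), on a scale where the added 1 FPKM makes the change of a gene at this level look smaller. Ubd remained called when any 1 library was left out, with log2 fold changes of 0.73 to 0.92. Its neighbours on the chromosome, the odorant receptor genes Olfr93 and Olfr94, were at or near 0 in every library.

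The 250 bases before the RefSeq start of Ubd (GRCm38.p6, chr17:37193642-37193891, plus strand) are shown because Ubd differed most among the 47 genes. Capitals mark the only match to the motifs searched, an NF-κB consensus site that begins 15 bases before the start.
Ubd: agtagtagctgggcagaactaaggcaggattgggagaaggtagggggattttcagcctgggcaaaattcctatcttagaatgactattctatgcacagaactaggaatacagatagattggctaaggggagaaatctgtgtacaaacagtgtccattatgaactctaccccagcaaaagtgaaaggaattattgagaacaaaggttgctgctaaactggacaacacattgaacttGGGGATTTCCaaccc
A match of this kind was present in 5.81% of all 32851 promoter windows of 300 bases and is a description of the sequence, not evidence of binding.

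The enzymes and partners of FAT10 did not pass the test. Of 5 such genes, all tested, 0 passed the threshold in limma's adjusted test and 0 had an unadjusted p below 0.05. Over all genes tested these shares were 8.49% and 25.5%, so counts of 0 among 5 are not read as a difference. The median log2 fold change was 0.07, with 4 of the 5 positive. Groups did not overlap for 1 of the 5, Sqstm1, which was higher in NSUN2-KO (log2 fold change 0.07, limma adjusted p = 0.240). The values of the 3 most direct partners, chosen after the values were seen, follow. Uba6, the activating enzyme for FAT10, was at 5.30, 5.50 and 4.98 FPKM in NSUN2-KO and 5.11, 4.49 and 4.72 FPKM in NC (log2 fold change 0.12, limma adjusted p = 0.273). Ube2z, the conjugating enzyme, had a log2 fold change of -0.02 (limma adjusted p = 0.804). Nub1, which escorts FAT10 to the proteasome, had a log2 fold change of 0.07 (limma adjusted p = 0.283).

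**Figure D2:**
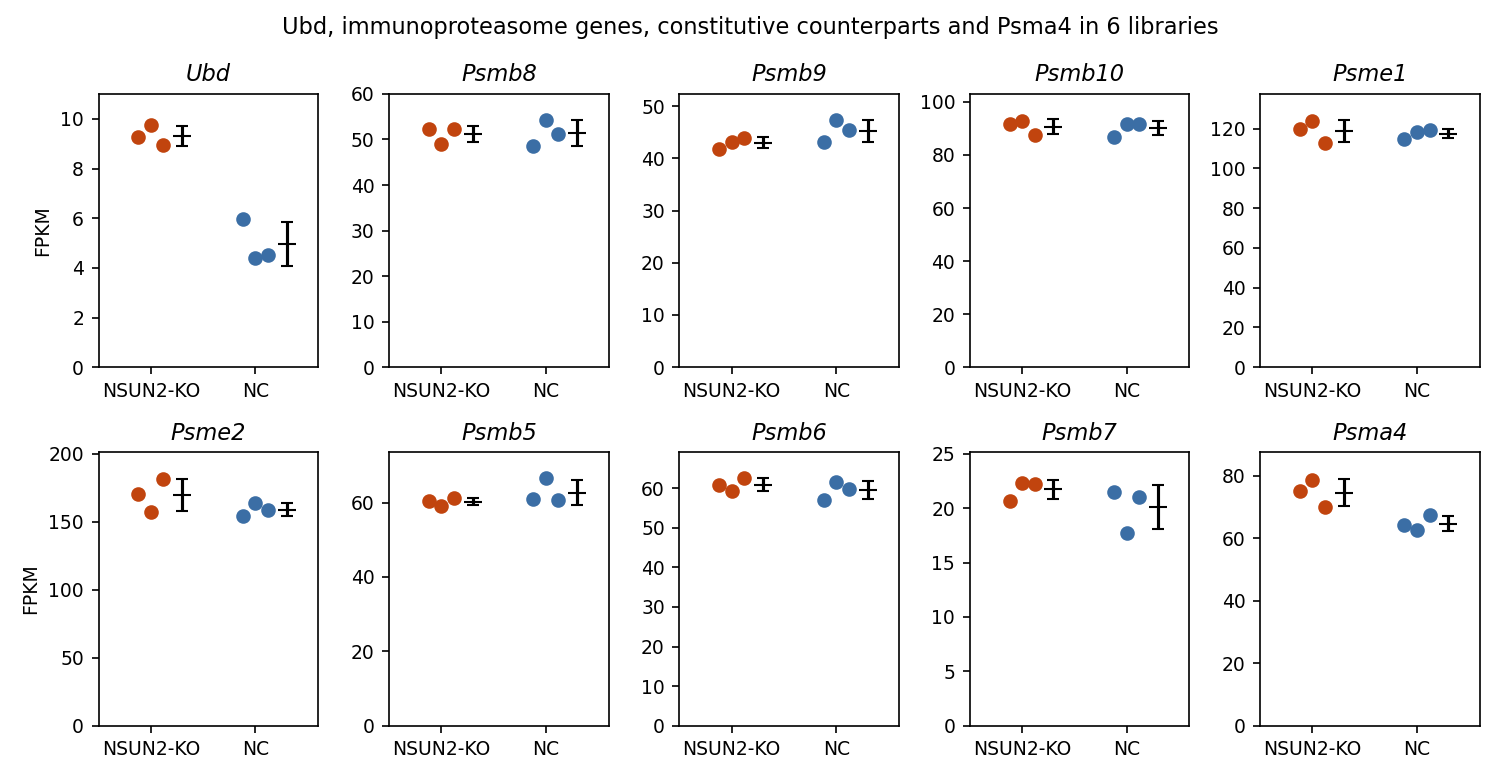
FPKM in each library (y axis of each panel, linear and starting at 0) for Ubd, Psma4 and the immunoproteasome genes and their constitutive counterparts, NSUN2-KO left of NC, with a point for each of 3 libraries and, beside them, a bar at the mean with its SD. The NSUN2-KO points lie above all NC points for Ubd and Psma4 and overlap with NC for Psmb8, Psmb9, Psmb10, Psme1 and Psme2.

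The 3 immunoproteasome catalytic subunits were abundant in both groups and did not pass the test. Psmb8, which replaces Psmb5 at the chymotrypsin-like site, lies at chr17:34197721-34201454 on the plus strand (GRCm38, as for the positions that follow). It was at 52.2, 49.1 and 52.2 FPKM in NSUN2-KO and 48.6, 54.3 and 51.1 FPKM in NC, and the NSUN2-KO values all fell inside the NC range. The log2 fold change of Psmb8 was -0.0042 (95% interval -0.11 to 0.11, limma adjusted p = 0.967), and its sign turned to 0.0051 with TPM scaling and 0.0034 with median ratios, both within that interval. Psmb9, which replaces Psmb6 at the caspase-like site, lies beside it at chr17:34181988-34187764 on the minus strand. Psmb9 was at 41.8, 43.2 and 44.0 FPKM in NSUN2-KO and 43.1, 47.3 and 45.4 FPKM in NC, so that the lowest value was in NSUN2-KO and the highest in NC, with overlap between them (log2 fold change -0.07, 95% interval -0.17 to 0.03, limma adjusted p = 0.340). Psmb10, which replaces Psmb7 at the trypsin-like site, lies at chr8:105935735-105938444 on the minus strand. It was at 91.8, 92.7 and 87.5 FPKM in NSUN2-KO and 86.9, 91.5 and 91.8 FPKM in NC, which overlap throughout (log2 fold change 0.01, 95% interval -0.08 to 0.09, limma adjusted p = 0.909).

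Psmb8 and Psmb9 sit on either side of Tap1, in the class II part of the MHC, with Tap2 beyond Psmb8. Tap1 and Tap2 together form the peptide transporter that feeds MHC class I. Tap1 was at 171.1, 165.6 and 170.6 FPKM in NSUN2-KO and 169.8, 181.5 and 170.2 FPKM in NC (log2 fold change -0.04, limma adjusted p = 0.540). Tap2 was at 67.7, 63.7 and 73.0 FPKM in NSUN2-KO and 67.1, 69.0 and 67.1 FPKM in NC (log2 fold change 0.01, limma adjusted p = 0.951). For all 4 genes of the cluster the 95% interval of the log2 fold change included 0. Psmb9 and Tap1 overlap by 212 bases on opposite strands, and since no source used here gives the strand setting of the counting, reads from that overlap cannot be told apart.

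The constitutive catalytic subunits that the immunoproteasome subunits replace gave values of the same kind. Psmb5 was at 60.4, 59.2 and 61.2 FPKM in NSUN2-KO and 60.9, 66.6 and 60.7 FPKM in NC (log2 fold change -0.06, 95% interval -0.15 to 0.04, limma adjusted p = 0.463). Psmb6 was at 60.8, 59.4 and 62.6 FPKM in NSUN2-KO and 57.1, 61.6 and 59.8 FPKM in NC (log2 fold change 0.03, 95% interval -0.06 to 0.12, limma adjusted p = 0.643). Psmb7 was at 20.7, 22.3 and 22.2 FPKM in NSUN2-KO and 21.5, 17.8 and 21.0 FPKM in NC (log2 fold change 0.11, 95% interval -0.05 to 0.28, limma adjusted p = 0.371). The groups overlapped for each of them, and the widest interval belonged to Psmb7, where NC replicate 2 was the lowest of the 6 libraries.

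Stretches before a RefSeq start of a replacing and a replaced subunit are shown side by side. Each is the 250 bases before a RefSeq start (GRCm38.p6), Psmb8 at chr17:34197945-34198194 on the plus strand and Psmb5 at chr14:54617996-54618245 on the minus strand. The Psmb8 start used is an internal one. Its stretch lies inside the annotated gene, which begins at 34197721, and not upstream of it. Capitals mark a STAT-type GAS match (TTCNNNGAA) beginning 97 bases before the start in Psmb8 and a match to the core of the antioxidant response element (TGACNNNGC), the sequence read by NRF1 and NRF2, beginning 47 bases before the start in Psmb5. Such matches were present in 8.30% and 12.4% of all 32851 windows, in that order, and describe the sequence without being evidence of binding.
Psmb8: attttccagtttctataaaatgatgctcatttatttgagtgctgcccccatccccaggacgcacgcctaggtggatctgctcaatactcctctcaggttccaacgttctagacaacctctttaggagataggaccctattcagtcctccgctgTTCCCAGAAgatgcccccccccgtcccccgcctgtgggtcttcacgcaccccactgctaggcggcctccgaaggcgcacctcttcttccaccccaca
Psmb5: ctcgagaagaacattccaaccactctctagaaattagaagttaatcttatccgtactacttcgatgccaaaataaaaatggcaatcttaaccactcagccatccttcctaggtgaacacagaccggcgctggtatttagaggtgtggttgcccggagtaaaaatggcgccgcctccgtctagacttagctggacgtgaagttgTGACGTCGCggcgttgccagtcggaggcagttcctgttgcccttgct

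The share of each catalytic pair taken by the immunoproteasome subunit describes the balance of the 2 forms in RNA per annotated length. At the chymotrypsin-like site Psmb8 made up 46.4, 45.3 and 46.1% of Psmb8 plus Psmb5 in NSUN2-KO and 44.4, 44.9 and 45.7% in NC (45.9 ± 0.53% and 45.0 ± 0.66%, SD, n = 3 each). At the caspase-like site Psmb9 made up 40.8, 42.1 and 41.3% in NSUN2-KO and 43.0, 43.4 and 43.1% in NC, lower by 1.81 percentage points with no overlap between the groups. At the trypsin-like site Psmb10 made up 81.6, 80.6 and 79.7% in NSUN2-KO and 80.2, 83.7 and 81.4% in NC, which overlap. None of the 3 shares passed an exact two-sided permutation test, with p = 0.2, 0.1 and 0.5 in the order given and 0.3, 0.3 and 0.5 after Benjamini-Hochberg adjustment over the 3, and 0.1 is the smallest p that 3 libraries against 3 allow. In FPKM Psmb10 thus outweighed its counterpart in every library of both groups, whereas Psmb8 and Psmb9 were below theirs. That order depends on annotated length, 2736 bases for Psmb8 against 899 for Psmb5 and 3659 for Psmb9 against 1872 for Psmb6. In reads Psmb8 (4713 to 6808) was above Psmb5 (1868 to 2740), and Psmb9 (5546 to 7926) above Psmb6 (3899 to 5284). The shares therefore do not settle which form was more abundant at these 2 sites.

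**Figure D3:**
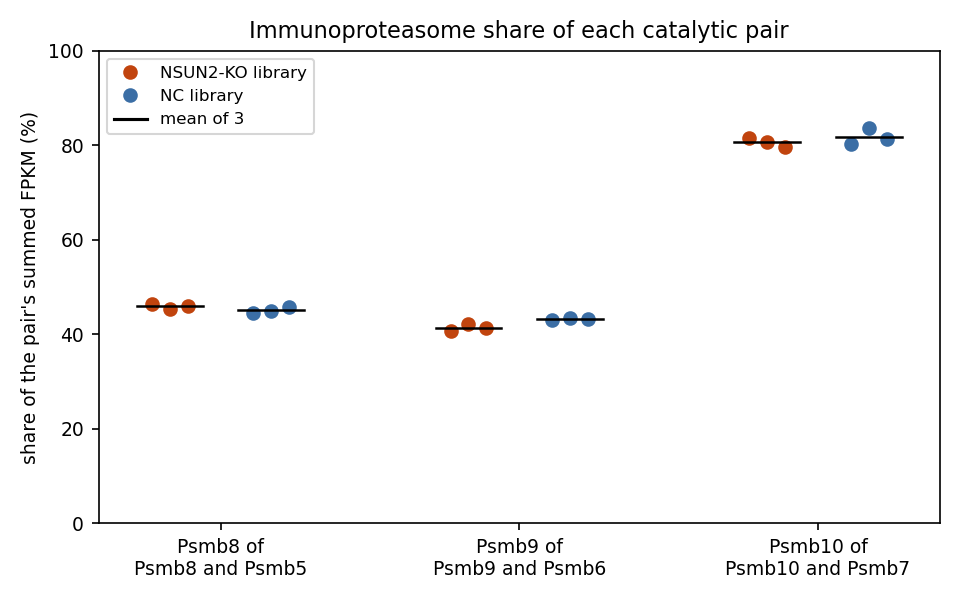
Share of each catalytic pair taken by the immunoproteasome subunit, in percent of the pair's summed FPKM (y axis), for each library, NSUN2-KO left of NC, with a bar at the mean of 3 libraries. Psmb9 lies at 40.8 to 42.1% in NSUN2-KO and 43.0 to 43.4% in NC, and the other pairs overlap.

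The PA28 activator genes were the most abundant of the immunoproteasome group. Psme1 lies at chr14:55578123-55581529 on the plus strand, and Psme2 lies close by at chr14:55587441-55591113 on the minus strand. Psme1 was at 119.7, 124.1 and 112.7 FPKM in NSUN2-KO and 114.9, 118.3 and 119.3 FPKM in NC, with the highest and the lowest value both in NSUN2-KO (log2 fold change 0.02, 95% interval -0.08 to 0.11, limma adjusted p = 0.854). Psme2 was at 170.4, 157.6 and 181.4 FPKM in NSUN2-KO and 154.3, 163.9 and 158.6 FPKM in NC, overlapping through NSUN2-KO replicate 2 (log2 fold change 0.09, 95% interval -0.03 to 0.21, limma adjusted p = 0.314). Emc9, the gene between them, was at 1.40, 1.78 and 1.35 FPKM in NSUN2-KO and 1.71, 2.32 and 2.73 FPKM in NC (log2 fold change -0.36, limma adjusted p = 0.118).

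Psme2 has a near-identical intronless copy, Psme2b, at chr11:48945354-48946190 on the minus strand, whose annotated 837 bases form 1 exon. The coding sequences of both are 717 bases long and are identical at 712, that is 99.3%. The 90-base stretch with the most differences, bases 454 to 543 of the coding sequence (GENCODE vM21 transcripts, GRCm38), is shown because so few bases separate the 2 genes, with the 3 differing bases in capitals.
Psme2: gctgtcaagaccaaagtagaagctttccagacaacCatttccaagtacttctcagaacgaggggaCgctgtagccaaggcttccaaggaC
Psme2b: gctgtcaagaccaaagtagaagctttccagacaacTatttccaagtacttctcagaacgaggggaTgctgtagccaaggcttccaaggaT
Psme2b was listed at 211.8, 208.3 and 232.6 FPKM in NSUN2-KO and 189.7, 198.5 and 189.8 FPKM in NC, above Psme2 in every library. All NSUN2-KO values were above all NC values, and the log2 fold change of 0.17 (SE 0.05, 95% interval 0.07 to 0.28) had a limma adjusted p of 0.0584, and of 0.0150 by limma voom on recovered reads. In reads Psme2b was below Psme2, at 6117 to 7609 against 9751 to 13241. How reads that match both genes were counted by the authors is not stated in the sources used here, and Psme2b also overlaps Gm12185 and 9930111J21Rik1 on its own strand, so the values of Psme2 and Psme2b are uncertain singly. With the reads of Psme2 and Psme2b summed, an alternative chosen after seeing the data, the log2 fold change was 0.12 (SE 0.05, limma adjusted p = 0.162).

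Set against each other, the immunoproteasome and the constitutive genes had medians close to each other. For the 5 immunoproteasome genes the median log2 fold change was 0.01, from -0.07 to 0.09. Of the 5, 0 passed the adjusted threshold, 0 had an unadjusted p below 0.05 and 0 had groups that did not overlap. The 41 tested constitutive genes had a median of 0.03, from -0.17 to 0.20, with 1 higher and 0 lower. Of these 41, 3 had an unadjusted p below 0.05 and 9 had groups that did not overlap. Over all genes tested, 8.49% passed the adjusted threshold, 25.5% had an unadjusted p below 0.05 and 31.1% had groups apart. With only 5 genes, counts of 0 are not read as a difference from these shares. Constitutive here means every tested Psm gene outside those 5. The set thus holds subunits common to both forms, assembly chaperones, Psme3, Psme4, Psmf1 and Psme2b, besides Psmb5, Psmb6 and Psmb7. The median over all 9443 genes tested was -0.01. After GC content and gene length trends were removed within each library, the immunoproteasome median was 0.06 and the constitutive median 0.02, so their order was reversed. Across these genes and over all genes tested, log2 fold changes fell with GC content (Spearman -0.295 over 46 Psm genes and -0.374 over 9433 genes, given as a description), and the part of GC content in single results was not tested.

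In the alpha ring, which gates the core, Psma4 was higher in NSUN2-KO. Psma4 lies at chr9:54950790-54958030 on the plus strand. It was at 75.1, 78.6 and 70.0 FPKM in NSUN2-KO and 64.1, 62.5 and 67.4 FPKM in NC, with all NSUN2-KO values above all NC values. The means were 74.5 ± 4.30 and 64.7 ± 2.47 FPKM (SD, n = 3 each), with a log2 fold change of 0.20 (SE 0.05, 95% interval 0.09 to 0.31, limma adjusted p = 0.0451). The call was close to the threshold, while the log2 fold change stayed between 0.16 and 0.24 in all 18 alternatives. The call was lost without NSUN2-KO replicate 1 (adjusted p = 0.136), NSUN2-KO replicate 2 (0.104) and NC replicates 1 (0.0951), 2 (0.136) and 3 (0.0753) in limma, and also with no filter on low genes (0.158) or no mean-variance trend (0.0934), so that Ubd was then the only one of the 47 called except without NC replicate 1, where Psme4 was also called.

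The other 6 alpha-ring genes did not pass the test, and the 7 together had a median log2 fold change of 0.05. Their summed level was 441.8, 433.6 and 446.1 FPKM in NSUN2-KO and 427.9, 416.1 and 413.3 FPKM in NC, a ratio of 1.05 with no overlap. Without Psma4 the sums were 366.7, 355.1 and 376.0 FPKM in NSUN2-KO and 363.8, 353.5 and 345.9 FPKM in NC, which overlap. Within the ring Psma6 had the highest mean over the 6 libraries, at 129.9 FPKM, and Psma3 the lowest, at 22.5 FPKM, a 5.77-fold range per annotated length. The annotated lengths differ, at 1234 bases for Psma6 and 3894 for Psma3. In reads the 2 genes were closer, at 5512 to 6962 for Psma6 and 3178 to 3799 for Psma3. The part of annotated length in this range was not tested.

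In the beta ring the 4 non-catalytic genes, Psmb1 to Psmb4, were centred on a median log2 difference of 0.00, with 0 of 4 called, and their means ran between 17.4 FPKM for Psmb1 and 65.2 FPKM for Psmb4. Only Psmb2 among them had groups that did not overlap, at 61.7, 64.4 and 63.5 FPKM in NSUN2-KO and 59.3, 61.4 and 59.8 FPKM in NC (log2 fold change 0.07, limma adjusted p = 0.220). Psmb2 and the genes named after it for their lack of overlap were chosen after their values were seen.

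In the regulatory particle, the 6 ATPases Psmc1 to Psmc6, which unfold substrates, all had positive log2 fold changes but 0 of 6 passed the test, with a median of 0.03. Psmc6 had groups that did not overlap, at 23.9, 24.4 and 22.7 FPKM in NSUN2-KO and 22.5, 20.9 and 22.6 FPKM in NC (log2 fold change 0.10, limma adjusted p = 0.207). Psmc1 was the highest of the 6, with a mean of 90.3 FPKM, and Psmc2 the lowest, with 18.6 FPKM. The 11 non-ATPase genes, which include the ubiquitin receptor Psmd4 and the deubiquitinase Psmd14, had a median of 0.02 with 0 of 11 called. Their summed level was 406.0, 414.4 and 413.4 FPKM in NSUN2-KO and 409.6, 421.2 and 403.2 FPKM in NC, with the extremes in NC. Psmd2 was the highest at a mean of 95.9 FPKM and Psmd6 the lowest at 17.2 FPKM. The other genes with groups that did not overlap were Psmd3, with a log2 fold change of 0.06, the alpha-ring gene Psma1 (-0.07) and the assembly genes Psmd5 (-0.08) and Psmg2 (-0.17), none of them called.

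**Figure D4:**
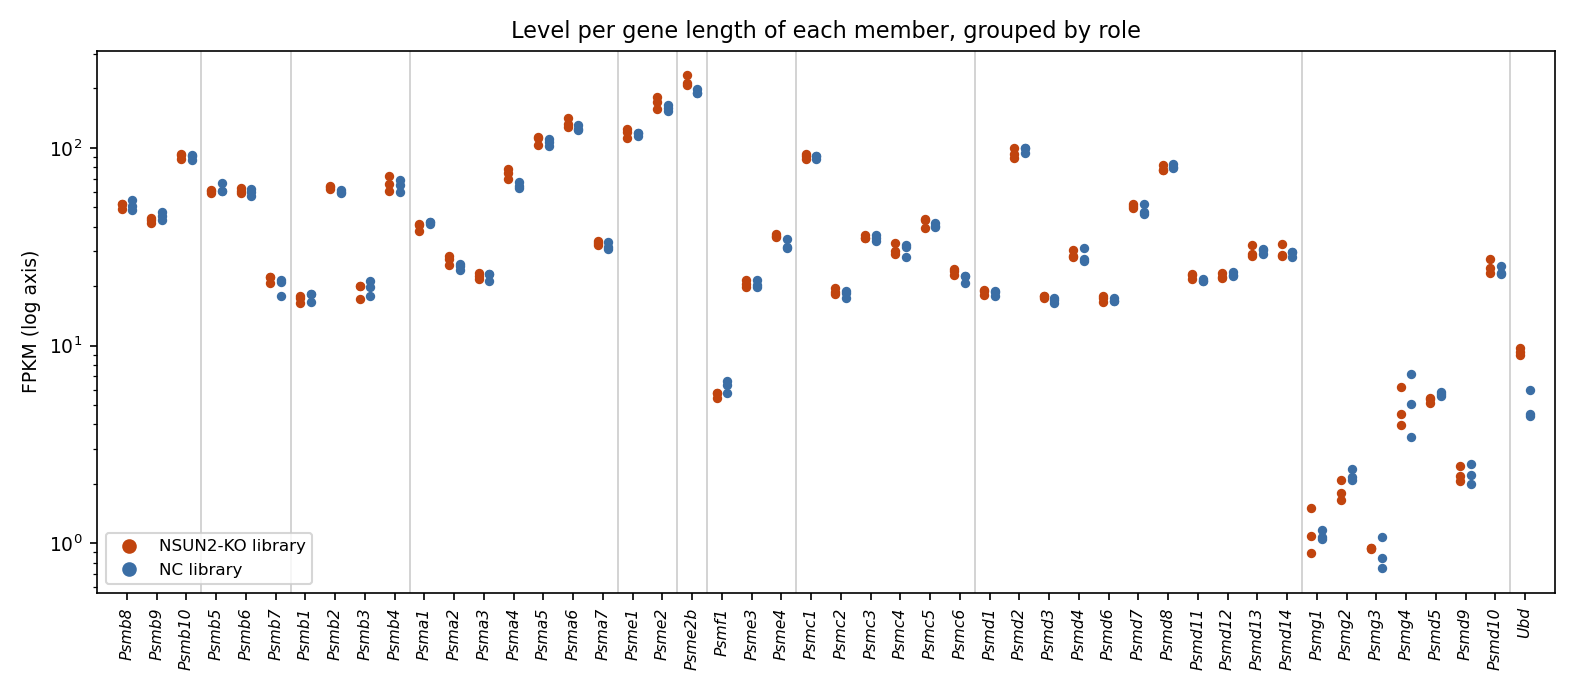
FPKM in each library (y axis, log scale) of the expressed Psm genes and Ubd (x axis, grouped by role), 1 point per library, with NSUN2-KO left of NC for each gene. Mean levels per annotated gene length within the alpha ring span 5.77-fold, and Ubd shows the widest gap between the groups.

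Among the alternative activators and the inhibitor, Psme3 and Psmf1 did not pass the test. Psme4, which encodes the activator PA200, was at 35.5, 36.7 and 35.8 FPKM in NSUN2-KO and 34.5, 31.6 and 31.2 FPKM in NC, with groups that did not overlap (log2 fold change 0.15, limma adjusted p = 0.0850, and 0.0165 by limma voom on recovered reads). The assembly chaperones were 7 genes, of which 6 were tested and 0 called, with a median log2 fold change of -0.03. For 3 of the 6 the 95% interval lay within 0.25 of 0, and the widest was that of Psmg4, with an SE of 0.22 at a mean of 5.06 FPKM. Psmg3, which acts with Psmg4 in building the alpha ring, missed the filter at 0.943 FPKM in NSUN2-KO and 0.890 FPKM in NC on average.

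The 3 other genes under the filter were near 0. Psma8, the alpha subunit of the testis proteasome, averaged 0.0958 FPKM in NSUN2-KO and 0.0447 FPKM in NC. Psmb11, the thymus-specific catalytic subunit, had 2 reads in 1 NSUN2-KO library and 0 in the others. Psmc3ip matched the naming pattern but encodes a factor of meiotic recombination and not a subunit, and averaged 0.168 FPKM in NSUN2-KO and 0.104 FPKM in NC.

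The genes around the proteasome were examined in 7 lists, and their counts are read against 8.49% called among all genes tested, 4.19% higher and 4.3% lower. Of 13 proteasome-associated factors outside the Psm names, among them Adrm1, Pomp, Usp14 and Zfand5, 0 of 13 tested passed the threshold in either direction, with a median log2 fold change of 0.02. Of 10 ubiquitin genes, E1 enzymes and shuttle factors 9 were tested and 0 passed, with a median of 0.00. Of 8 regulators around NRF1, the factor that induces proteasome genes when the proteasome is overloaded, 1 was higher and 0 lower. That gene was Maff, a small Maf partner of NRF1 and NRF2, at 3.58, 4.33 and 4.14 FPKM in NSUN2-KO and 2.71, 3.19 and 2.75 FPKM in NC (log2 fold change 0.37, limma adjusted p = 0.0301). Nfe2l1, which encodes NRF1 and was named after its values were seen, had a log2 fold change of 0.04 (limma adjusted p = 0.580).

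In the 3 immune lists the medians lay between -0.02 and 0.01, and each held 1 call, a rate near that background. Of 12 genes of other ubiquitin-like modifiers and the ISG15 system, all tested, 1 was higher and 0 lower. It was Usp18, the protease that removes ISG15, at 174.4, 169.8 and 163.3 FPKM in NSUN2-KO and 151.2, 153.9 and 151.1 FPKM in NC (log2 fold change 0.15, limma adjusted p = 0.0291). Of 11 MHC class I loading genes 1 was higher and 0 lower, the chaperone Canx, at 97.0, 102.1 and 97.3 FPKM in NSUN2-KO and 88.7, 83.6 and 87.8 FPKM in NC (log2 fold change 0.19, limma adjusted p = 0.0225). Groups did not overlap for 6 of the 11, 3 higher and 3 lower, against 31.1% of all genes tested. Among the 3 lower was H2-D1, just short of the threshold (log2 fold change -0.19, limma adjusted p = 0.0510). Of 15 interferon and NF-κB transcription factors 13 were tested, 0 were higher and 1 was lower. It was Irf7, a driver of type I interferon genes, at 661.5, 662.2 and 646.1 FPKM in NSUN2-KO and 707.8, 745.4 and 722.2 FPKM in NC (log2 fold change -0.14, limma adjusted p = 0.0291). For Usp18, Canx and Irf7 the groups did not overlap.

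**Figure D5:**
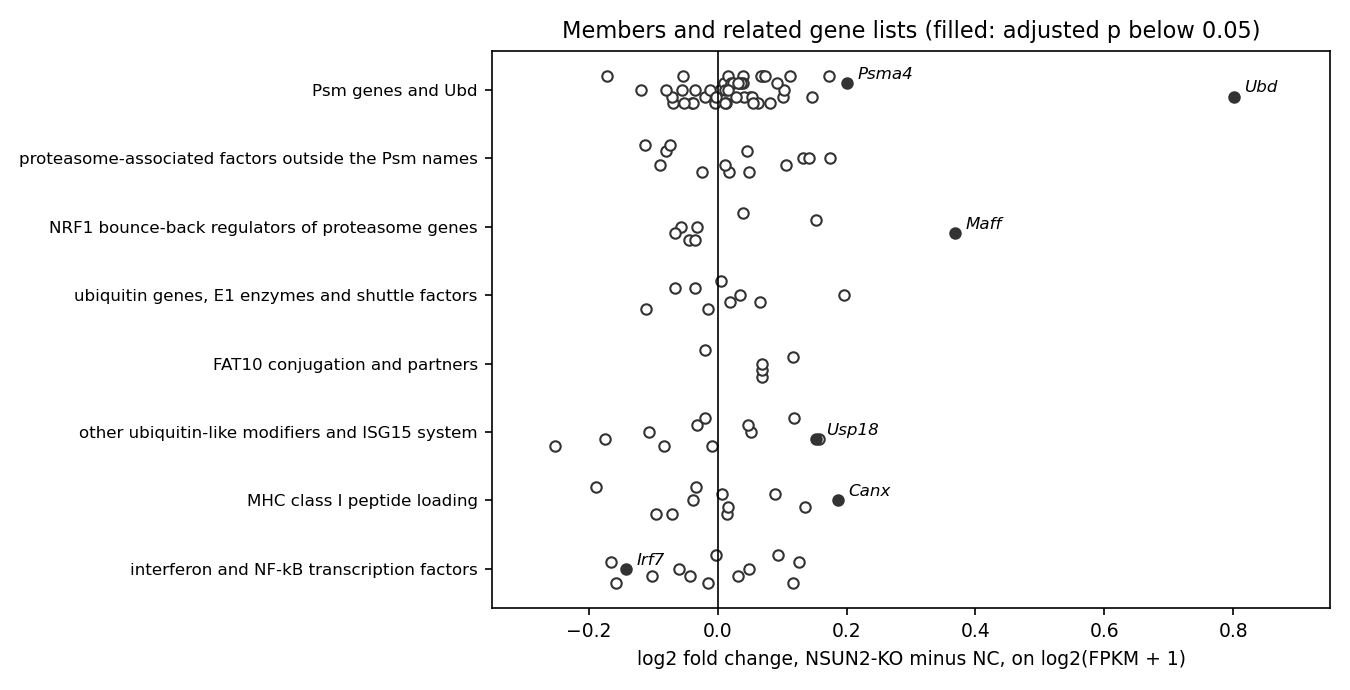
Log2 fold changes, NSUN2-KO minus NC (x axis), of the tested genes of each pathway list and of the Psm genes with Ubd (y axis), 1 point per gene, filled and named where the adjusted p was below 0.05. Psma4, Maff, Usp18, Canx and Irf7 lie between -0.14 and 0.37, and Ubd lies apart at 0.80.

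Promoter windows of 300 bases, 250 before and 50 after a RefSeq start (GRCm38.p6), were found by symbol for 43 of the 51 genes, in 46 windows, and were searched on both strands. An interferon-stimulated response element (GAAA, any 2 bases, then GAAA) was present in 5 of the 46 windows (10.9%), in Psmb3, Psmd4, Psmd9, Psme1 and Psmg4, against 3.44% of all windows. A GAS match was present in 3 (6.52%), in Psmb8, Psmd2 and Psmg1, against 8.30% of all windows. The NF-κB consensus was present in Ubd and Psma7 (4.35%, against 5.81%), and the antioxidant response element core was present in 6 windows (13.0%, against 12.4%), in Psmb5, Psmb6, Psmc6, Psmd9, Psmd12 and Psme4. The matched windows of Psmb8, Psmd9 and Psme1 lie inside the annotated genes, after an internal start was used. No match in a window says only that these letters are not in it. Of the 2 genes that passed the test, Ubd held an NF-κB match and Psma4 was not among the genes with a match. For 8 of the 51 genes no window was found, so a gene missing from these lists may not have been searched.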

How the data were processed

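The authors deposited FPKM values and gene lengths in bases for 6 libraries, with gene positions in GRCm38. Per the submitters' processing notes, the tools were featureCounts 1.5.0-p3, HISAT2 2.0.5, DESeq2 1.20.0, fastp and CASAVA 1.8. The sources used here do not give their roles, the annotation release or the strand setting. Per the labels' protocols, RNA was extracted with TRIzol. The design text gives 3 biological replicates per group and elsewhere fewer.

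FPKM times gene length gave whole reads for 100% of values (tolerance 0.01), which were used for depth and for 1 alternative. One read in a gene of 1000 bases was worth 0.0218 to 0.0285 FPKM. Genes averaging 1 FPKM or more entered limma 3.58.1 (R 4.3.3), two-sided, with a mean-variance trend on the log2(FPKM + 1) scale, adjusted by Benjamini-Hochberg. The fit was also run on reads simulated with the same spread setting for every gene, and no result given here rests on that run. The genes and lists were chosen with earlier results of these data known. Genes given in every library were Ubd, the immunoproteasome genes and their counterparts, called members, called genes of the lists and flanking genes; others were chosen after their values were seen. Alternatives covered pseudocounts of 0.1 and 5, filters, TPM, median ratios, voom, a replicate block, GC content and length, protein-coding genes and single libraries. One macrophage marker is not reported here. Motifs were searched with Python 3.11.15 in RefSeq windows.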

Additional observations from a re-analysis of the deposited data

How the results depend on the processing

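Ubd stayed higher in NSUN2-KO and called in all 18 alternatives, with log2 fold changes of 0.53 to 0.93 and limma adjusted p of 0.000106 to 0.0391. Against 2 members called higher, 1 was called with no filter, with no trend, with the replicate block and with the block after GC content and length were removed, 4 were called by voom on recovered reads (Ubd, Psma4, Psme2b and Psme4), and 1 to 2 were called when single libraries were left out. Members called lower numbered 0 in every alternative, with 0 to 3 at an unadjusted p below 0.05. Psme2b was called with a filter of 5 FPKM and with protein-coding genes only, and Psma7 with GC content and length removed. Psma4 was called in 9 of 18 alternatives and kept its direction in all, with an adjusted p of 0.119 under the replicate block and 0.108 under the block with GC content and length removed.

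The immunoproteasome median was 0.060 with GC content and length removed, with or without the replicate block, and -0.016 to 0.034 without single libraries, and the cause was not tested. The constitutive median stayed between 0.02 and 0.04, also without Psme2b, an alternative chosen after seeing the data. Psmb8 was at -0.0042 as reported, at 0.0051 with TPM, 0.0034 with median ratios and 0.031 with GC content and length removed, with or without the block, and ran between -0.042 and 0.037 without single libraries. Psmb10 (-0.016 to 0.034) and Psme1 (-0.016 to 0.053) also changed sign only when single libraries were left out. None of these values was called.

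The labels do not say whether the replicate numbers mark pairs of libraries. Deviations of same-numbered libraries correlated at -0.0095, -0.0298 and 0.0034, and no library correlated best with its own number. These values show no shared effect, but cannot settle how the libraries were prepared. The block moved the count over all genes to 351, against 802 without it. That count was 265 with no filter, 526 with no trend, 1372 by voom, 462 with block and GC content, and 270 to 595 without single libraries. Psmb11, at 0 to 2 reads, and Psma8, at 0 to 14, were too low to be tested, and intervals cover only the spread between these libraries.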
